A study of Mus musculus with 9 samples.

Results

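In 3 of 9 arrays of cultured mouse lung cells, the gene Hdgfl3 was 8.09-fold lower than in the arrays they were compared with. That value is from the probe set used to choose the arrays. A set of 315 genes, Hdgfl3 included (2.43% of those tested), differed at least 2-fold in the same direction in every group. These low arrays lacked the lysozymes Lyz1 and Lyz2 and the transcription factors Maf, Foxp2 and Nfix at the levels of the other arrays. They held instead high levels of the annexin Anxa1, the cadherin Cdh9 and the lipid-binding protein Clvs1. Most genes of 2 stretches, on chromosomes 4 and 11, were lower together in them, while most of the rest of chromosome 11 and a part of chromosome 2 were slightly higher.

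The arrays were grouped by a measured value: within preSC, L-Myc-preSC and C-Myc-preSC, an array was called low where 1 of the 3 Hdgfl3 probe sets was under 8 on the log2 scale, and high otherwise. This gave 3 low arrays (preSC 3, L-Myc-preSC 2 and C-Myc-preSC 2) and 4 high arrays (preSC 1, preSC 2, L-Myc-preSC 1 and C-Myc-preSC 1) among 7 arrays of 3 groups. Both N-Myc-preSC arrays were left out of the split and are given beside it. The genes described are those at least 2-fold higher, or at least 2-fold lower, in the low than in the high arrays of each of the 3 groups, and 315 of 12976 genes tested met this. Since the arrays were chosen by a gene's own level, the differences are a description and no test was run on them.

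Per the labels, preSC are preneoplastic neuroendocrine cells from mouse lungs of mixed C57BL/6 and 129/Sv background. Adeno-Cre virus had been used in mice with conditional alleles of Rb, p53 and p130, so all 9 arrays share these 3 deletions. Each transduced group received retrovirus carrying the MYC gene in its name, and preSC are given without one. There were 3 preSC arrays and 2 of each transduced group, all from cells in RPMI1640 with bovine growth serum. The labels call the RNA of preSC and L-Myc-preSC polyA and that of C-Myc-preSC and N-Myc-preSC total RNA, while their extraction protocol gives total RNA for all. The 18S ribosomal RNA signal was 12.88 to 13.91 in preSC and 8.22 to 9.35 in the other groups, so it did not follow that label. The labels do not say which cultures, clones or passages were used, so whether arrays of 1 group came from separate cultures is not known.

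Pulmonary neuroendocrine cells are rare airway cells that store peptides and amines in granules, and small cell lung cancer can arise from them once Rb and p53 are lost. Hdgfl3 encodes a protein of the hepatoma-derived growth factor family, whose PWWP domain binds chromatin, and it is known mainly from neurons. The proteins of Lyz1 and Lyz2 are secreted lysozymes that cut bacterial cell walls. In lung, Lyz2 is used as a marker of alveolar type 2 cells and of macrophages.

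The cells were checked against the labelled type with 26 neuroendocrine markers. In each array 24 to 26 of them were above the 40th percentile of that array. The mean level of these markers was 9.98, 9.84 and 9.72 in the low arrays and 9.35 to 9.99 in the high arrays, so the ranges overlapped. Array medians lay between 6.02 and 6.07. The deposited values are log2 intensities made with RMA, levels and differences below are on that scale, and their precision is limited by how few arrays there are.

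**Figure D1:**
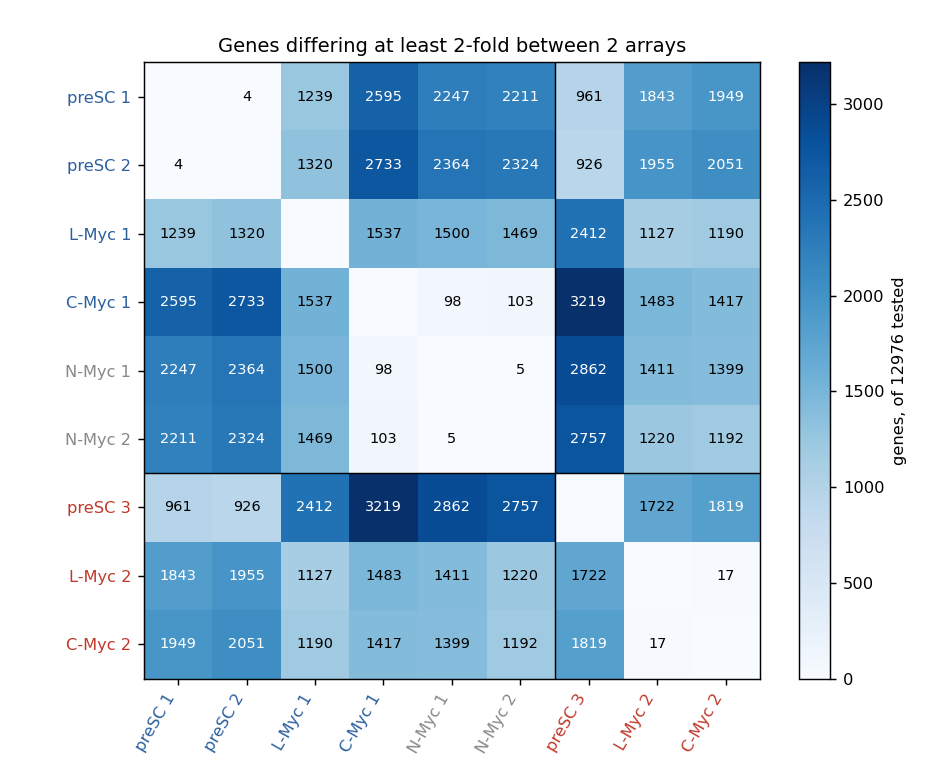
Number of tested genes that differ at least 2-fold between each pair of the 9 arrays; both axes list the arrays, red names are Hdgfl3-low, blue names Hdgfl3-high and grey names the N-Myc arrays, and black lines part the low arrays from the rest. L-Myc 2 and C-Myc 2 differ at 17 genes, and C-Myc 1 differs from the N-Myc arrays at 98 and 103.

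Some arrays of different groups lay closer to each other than to their own replicates, which bears on the results below. L-Myc 2 and C-Myc 2, both low, differed at least 2-fold at 17 genes (0.131% of those tested). For comparison, preSC 1 and 2 differed at 4 genes (0.0308%) and the N-Myc arrays at 5 (0.0385%). L-Myc 2 and its own replicate L-Myc 1 differed at 1127 genes (8.69%), and C-Myc 2 and C-Myc 1 at 1417 (10.9%). C-Myc 1 in turn differed from the N-Myc arrays at 98 and 103 genes. The third low array, preSC 3, stood apart from L-Myc 2 at 1722 genes and from C-Myc 2 at 1819, more than from preSC 1, at 961.

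Of the MYC genes, which encode transcription factors of growth, Myc and 1 Mycl probe set differed between these close arrays. Myc was 7.29 in L-Myc 2 and 10.68 in C-Myc 2, the largest of the 17 differences. A Mycl probe set was 12.74 and 8.52 in them, against 5.39 to 5.74 in preSC. The brightest Mycl probe set did not separate them from preSC, at 8.78 and 8.92 against 8.65 to 9.03. The brightest Mycn probe set was high in both, at 13.33 and 13.08 against 6.37 to 6.89 in preSC. It was high in every transduced array, at 11.07 to 13.54. Another Mycn probe set was lower in both close arrays, at 6.86 and 7.0 against 7.74 to 8.52 in preSC. The remaining Mycn probe set was near preSC in them, at 6.08 and 5.79 against 6.05 to 6.39. In N-Myc 1 and 2 it was higher, at 9.05 and 8.46. Of the 315 genes described, 3 differed at least 2-fold between these arrays, the most by 1.33. The low sides of the L-Myc and C-Myc groups are close to 1 profile read against different high arrays, so recurrence between these 2 groups is not independent. Whether they came from 1 culture was not tested.

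With the C-Myc arrays left out, 297 genes were at least 2-fold higher and 289 lower in both preSC and L-Myc-preSC. Without the L-Myc arrays, 230 were higher and 169 lower in both preSC and C-Myc-preSC. Without preSC 3, which leaves the L-Myc and C-Myc groups, 279 were higher and 197 lower.

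Hdgfl3, on chromosome 7, was 9.82, 9.79 and 6.96 in preSC 1, 2 and 3 on the probe set that set the rule. It was 9.76 and 6.73 in L-Myc 1 and 2, and 10.36 and 7.19 in C-Myc 1 and 2. No array lay near the limit of 8: the highest low array was at 7.19 and the lowest high array at 9.76, a gap of 2.57. The differences of low minus high were -2.85, -3.03 and -3.17 in preSC, L-Myc-preSC and C-Myc-preSC, with a mean of -3.02 ± 0.16 (SD over the 3 groups). Both other Hdgfl3 probe sets were higher in all 4 high arrays, at 9.82 to 10.51, than in the low arrays, at 3.37 to 5.29. Their differences were larger, at -5.02, -6.03 and -6.22 and at -5.20, -6.34 and -6.91. In the N-Myc arrays the first probe set was 10.23 and 10.27, within the range of the high arrays. Hdgfl3 was used to split the arrays, so its own difference follows from the rule. None of the other tested genes of its family was past 2-fold in all 3 groups. Hdgf, the founding member, differed by -0.41, -0.40 and -0.32, and Psip1, which encodes a chromatin tether, by 0.03, -0.15 and -0.36.

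Promoter windows of 4 of the genes with the largest differences are shown because Hdgfl3 and the other 3 differ widely in their number of CG pairs. Each runs from 250 bases before to 50 after the RefSeq gene start on GRCm38.p6, is on the minus strand, is written 5′ to 3′, and has its CG pairs in capitals. Hdgfl3 lies at chr7:81934410-81934709, Lyz1 at chr10:117292819-117293118, Lyz2 at chr10:117282223-117282522 and Anxa1 at chr19:20390622-20390921.
Hdgfl3: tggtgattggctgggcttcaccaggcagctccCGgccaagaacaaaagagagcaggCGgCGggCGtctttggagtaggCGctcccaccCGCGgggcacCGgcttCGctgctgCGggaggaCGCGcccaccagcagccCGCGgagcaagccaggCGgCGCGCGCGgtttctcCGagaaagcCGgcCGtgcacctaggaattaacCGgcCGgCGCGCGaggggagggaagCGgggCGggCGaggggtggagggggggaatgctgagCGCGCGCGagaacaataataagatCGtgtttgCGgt
Lyz1: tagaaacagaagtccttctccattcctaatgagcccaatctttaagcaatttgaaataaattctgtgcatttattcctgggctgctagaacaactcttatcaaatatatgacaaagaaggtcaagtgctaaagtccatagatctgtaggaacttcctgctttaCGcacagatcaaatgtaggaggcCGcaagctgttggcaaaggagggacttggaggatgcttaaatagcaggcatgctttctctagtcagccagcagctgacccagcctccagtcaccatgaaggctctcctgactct
Lyz2: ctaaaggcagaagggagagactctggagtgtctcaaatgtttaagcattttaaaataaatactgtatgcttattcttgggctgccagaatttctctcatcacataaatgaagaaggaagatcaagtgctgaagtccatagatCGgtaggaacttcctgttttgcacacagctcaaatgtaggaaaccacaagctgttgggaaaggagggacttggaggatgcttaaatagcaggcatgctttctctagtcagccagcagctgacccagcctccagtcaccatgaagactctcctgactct
Anxa1: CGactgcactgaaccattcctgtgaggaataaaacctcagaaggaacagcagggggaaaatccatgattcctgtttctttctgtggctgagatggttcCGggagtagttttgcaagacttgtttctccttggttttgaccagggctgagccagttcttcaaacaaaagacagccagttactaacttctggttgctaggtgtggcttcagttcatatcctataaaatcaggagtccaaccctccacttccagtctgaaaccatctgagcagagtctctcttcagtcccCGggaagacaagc
The Hdgfl3 window holds 36 CG pairs, the Lyz1 window 2, the Lyz2 window 1 and the Anxa1 window 3. The 2 lysozyme windows shared 254 of 300 bases (84.7%).

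Over the genes with a window in the table, chromosome 18 left out, the median was 13 CG pairs for 131 higher genes, 22 for 107 lower genes and 21 for 10442 genes tested. Windows with 5 or fewer CG pairs made up 24.4% of the higher genes, 17.8% of the lower genes and 10.7% of the genes tested. The E-box motif CACGTG, which reads the same on both strands and is bound by MYC with its partner MAX, was in 7.63% of the higher, 7.48% of the lower and 10.0% of all tested windows. It was in 7.24% of all windows in the table. Differences of this kind were not tested.

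Of the 315 genes, 175 were higher in the low arrays (1.35% of genes tested) and 140 were lower (1.08%). In single groups, genes at least 2-fold different in either direction numbered 931 in preSC (7.17%), 1127 in L-Myc-preSC (8.69%) and 1417 in C-Myc-preSC (10.9%). Higher genes made up 3.83% of those tested in preSC, 4.64% in L-Myc-preSC and 6.43% in C-Myc-preSC, and lower genes 3.34%, 4.05% and 4.49%. The same sign in all 3 groups, at any size, was seen for 5846 genes (45.1%), of which 3153 were higher (24.3%) and 2693 lower (20.8%). The median of the mean difference, without its sign, was 2.00 for the 175 higher genes and 1.86 for the 140 lower ones. At least a 4-fold difference in each group was reached by 37 higher and 30 lower genes. Of the higher genes, 44 were below the 40th percentile in all 4 high arrays, and of the lower genes 14 were below it in all 3 low arrays. A second probe set was measured well enough for 137 of the 315 genes. For 132 of these it had the same sign in all 3 groups, for 83 it was also past 2-fold in each, and for 0 it was past 2-fold in the opposite direction.

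**Figure D2:**
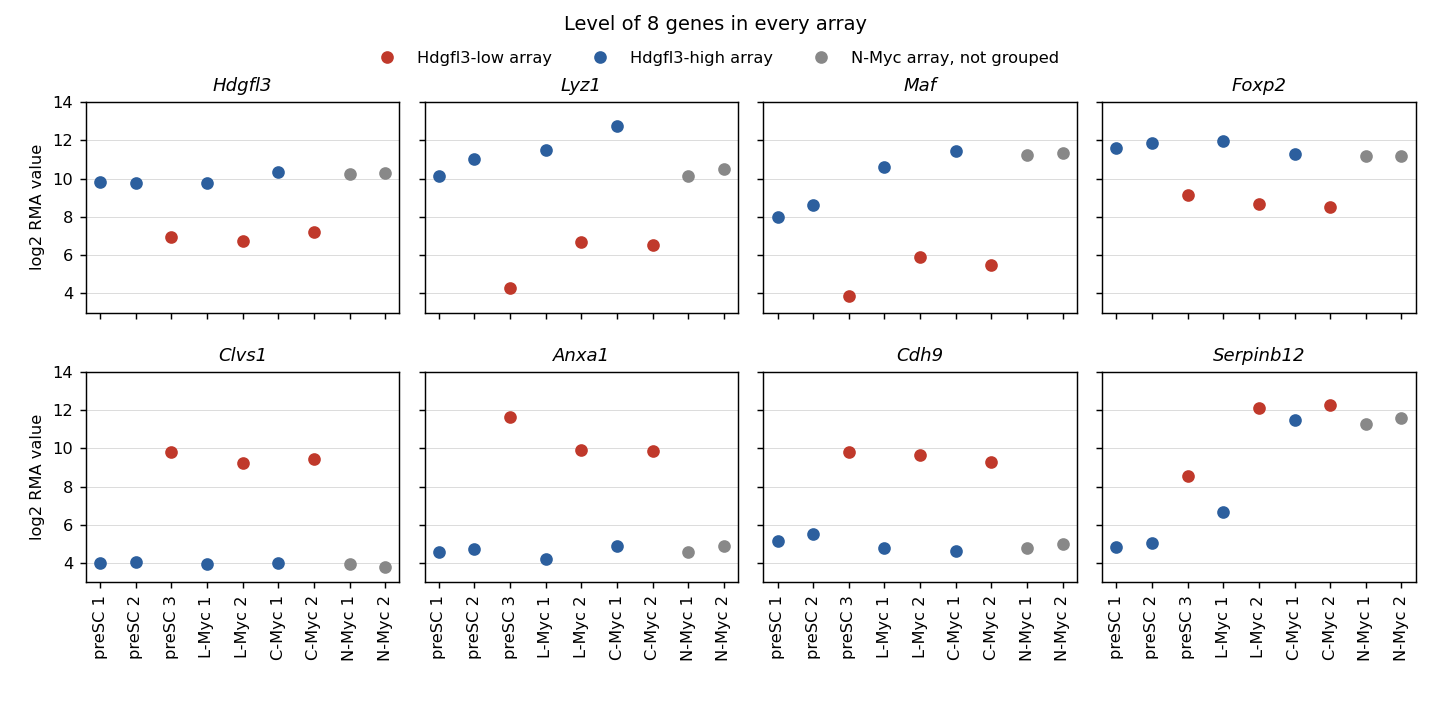
Level of 8 genes (log2 RMA value, vertical axis) in each of the 9 arrays (horizontal axis), 1 point per array, red for low, blue for high and grey for N-Myc arrays. In 7 of the panels all 3 low arrays stand apart from the 4 high arrays, and the N-Myc arrays lie with the high ones, while in the panel of Serpinb12 the C-Myc arrays lie together at 11.46 and 12.26.

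Lyz1 had the lowest mean difference of the lower genes, and its near copy Lyz2 was lower too. Lyz1 was 10.13, 11 and 4.29 in preSC 1, 2 and 3, 11.50 and 6.67 in L-Myc 1 and 2, and 12.74 and 6.55 in C-Myc 1 and 2. Lyz2 was 9.31, 10.09 and 5.61 in preSC, 10.99 and 6.44 in L-Myc, and 12.31 and 6.76 in C-Myc arrays in the same order. Every low array was below every high one for both genes, with mean differences of -5.76 ± 0.81 and -4.73 ± 0.75 (SD over the 3 groups). Another Lyz1 probe set was lower as well, by -5.22, -4.87 and -6.17. A further Lyz1 probe set did not pass the filter on low values. It was at 3.53 to 4.15 in all 9 arrays and differed by -0.10, -0.10 and -0.62. The 2 transcripts are near copies, so the share of each in these signals is uncertain, and the Lyz1 values may hold Lyz2 signal. Sftpc, which encodes surfactant protein C of alveolar type 2 cells, was also lower, with differences of -2.28, -1.34 and -4.51.

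The lysozymes and Sftpc were the 3 of 8 tested alveolar type 2 markers lower by 2-fold in all groups. For comparison, 1.08% of all genes tested were lower by this limit. Lyz2 was given with the rule as a marker and Lyz1 is its near copy, so they do not count as separate markers. Leukocyte and macrophage markers other than Lyz1 and Lyz2 (19 measured) had mean levels of 5.07, 5.14 and 5.13 in the low arrays and 5.06 to 5.13 in the high arrays. Between 4 and 5 of the 19 were above the 40th percentile in each of the 7 arrays. The defining markers were dim in all 9 arrays: Ptprc, the common leukocyte antigen, was at 3.57 to 4.22, and Adgre1, the macrophage antigen F4/80, at 4.49 to 4.72. Of 11 alveolar type 2 markers other than the lysozymes, 6 or 7 were above the 40th percentile in each of the 7 arrays, with mean levels of 5.98 to 6.66 in the low arrays and 6.01 to 6.58 in the high arrays. In bulk RNA, fewer cells of a type and less RNA per cell cannot be told apart.

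Transcription factors were among the genes with the largest negative differences. Maf, a leucine zipper factor, was 7.98, 8.63 and 3.85 in preSC 1, 2 and 3, 10.59 and 5.89 in L-Myc 1 and 2, and 11.42 and 5.49 in C-Myc 1 and 2. Foxp2, a forkhead repressor expressed in lung epithelium, was 11.62, 11.83 and 9.15 in preSC, 11.98 and 8.65 in L-Myc, and 11.27 and 8.50 in C-Myc arrays. Nfix, of the nuclear factor I family, was 11.28, 11.15 and 7.49 in preSC, 10.07 and 6.58 in L-Myc, and 8.70 and 6.08 in C-Myc arrays. For each of these 3 genes the low arrays lay below all high arrays, and the mean differences were -5.03 ± 0.79, -2.89 ± 0.40 and -3.28 ± 0.58 (SD over the 3 groups). Of 5 other Maf probe sets measured, 4 were also lower by 2-fold in each group, and 1 differed by 0.03, -0.99 and -1.81. Zfp536, a zinc finger repressor of neuronal differentiation, had differences of -3.89, -3.29 and -3.19, and Hoxb6, a homeobox gene, of -1.55, -1.43 and -2.15. Bcl11b, known from T cells and neurons, and Foxf1, a forkhead gene of lung mesenchyme, were chosen after their values were seen. They differed by -5.24, -2.02 and -2.52, and by -4.18, -3.60 and -2.16.

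Single genes of Wnt and bone morphogenetic protein (BMP) signalling were also among the lower genes. Wif1, a secreted inhibitor of Wnt ligands, was 10.08, 10.68 and 6.78 in preSC 1, 2 and 3, 10.98 and 8.27 in L-Myc 1 and 2, and 11.22 and 8.69 in C-Myc 1 and 2, with no overlap of low and high arrays. Bmp7, a BMP ligand, had differences of -1.23, -1.43 and -1.90. Wnt5a, a Wnt ligand, and Lgr5, a receptor that amplifies Wnt signals, were picked after their values were seen, with differences of -3.77, -2.71 and -2.13 and of -2.46, -2.25 and -2.54. In the list of IGF, activin, BMP and retinoid signalling, Bmp7 was the 1 of 25 tested genes past 2-fold in all groups. By this limit 1.35% of all genes tested were higher and 1.08% lower. The list medians were 0.01, 0.24 and 0.16. Notch2, a Notch receptor, was lower by 1.80, 1.81 and 1.92, the 1 such gene among 18 of the Notch pathway list, whose medians were 0.08, -0.17 and -0.18.

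Among genes of cell shape and guidance, Epb41l3 was lower in every group. This gene of the membrane skeleton was 9.61, 9.95 and 5.45 in preSC 1, 2 and 3, 9.67 and 5.06 in L-Myc 1 and 2, and 9.0 and 4.66 in C-Myc 1 and 2. Pmp22, which encodes a protein of peripheral myelin, was 10.10, 9.88 and 4.60 in preSC, 9.67 and 5.5 in L-Myc, and 8.12 and 5.06 in C-Myc arrays. Neither gene had a low array within the range of the high arrays. Chn1 and Dock3 encode a regulator that turns Rac off and one that turns it on. Their mean differences were -3.77 ± 0.83 and -3.06 ± 0.65 (SD over the 3 groups). Ntn1, the guidance cue netrin-1, differed by -3.88, -2.44 and -2.90, and Plxnd1, a semaphorin receptor, by -1.15, -1.05 and -1.93. Leaving out predicted genes, the rest of the 20 lower genes with the largest differences were Stox2, Anxa5, Frem1, Rpgrip1, Pdlim1, Prkd3 and Csmd2. Their mean differences lay between -4.04 and -2.38. Anxa5 binds phosphatidylserine and Prkd3 is a protein kinase D.

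Anxa1 and Clvs1, with the largest mean differences upward, were dim in the high arrays. Anxa1, which encodes a phospholipid-binding protein with anti-inflammatory actions, was 4.61, 4.73 and 11.61 in preSC 1, 2 and 3, 4.22 and 9.89 in L-Myc 1 and 2, and 4.92 and 9.87 in C-Myc 1 and 2. Clvs1, whose product binds lipids on clathrin-coated vesicles, was 4.02, 4.04 and 9.81 in preSC, 3.96 and 9.21 in L-Myc, and 4.0 and 9.44 in C-Myc arrays. In all 4 high arrays both were below the 40th percentile, which lay at 5.28 to 5.34. The mean differences were 5.86 ± 1.01 and 5.49 ± 0.27 (SD over the 3 groups). RMA compresses differences of dim probe sets, so these may understate the ratio of transcripts.

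Several of the 20 higher genes with the largest differences, predicted genes left out, encode surface and adhesion proteins. Cdh9, a classical cadherin of neurons, was 5.18, 5.55 and 9.81 in preSC 1, 2 and 3, 4.81 and 9.65 in L-Myc 1 and 2, and 4.61 and 9.26 in C-Myc 1 and 2. Adgrg6, an adhesion G protein-coupled receptor needed for myelination by Schwann cells, was 4.76, 4.64 and 10.99 in preSC, 4.61 and 8.72 in L-Myc, and 4.28 and 9.05 in C-Myc arrays. The low arrays were above all high arrays for both. Itgb8, an integrin subunit that releases active TGF-beta, differed by 2.56, 2.90 and 3.43. Pcdh7, a protocadherin, differed by 2.38, 4.19 and 2.94, with 8.95 in the high array preSC 1 and 9.92 in the low array C-Myc 2. Slitrk6, a neuronal surface protein, differed by 3.16, 2.36 and 3.34. Cdh9 was not on the list of cadherins and protocadherins, of whose 14 tested genes 1, Pcdh7, was past 2-fold in all groups, and the list medians were -0.01, 0.13 and 0.45. Of 26 tested genes of neural adhesion and axon guidance, 2 were higher (Sema3c and Ncam2, against 1.35% of all genes tested) and 2 lower (Ntn1 and Plxnd1, against 1.08%), with list medians of -0.06, -0.37 and 0.16. Sema3d, a secreted semaphorin, differed by 4.04, 3.93 and 4.07.

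Others of these 20 encode enzymes. Enpep, the aminopeptidase that trims angiotensin II, was 8.76, 8.68 and 12.67 in preSC 1, 2 and 3, 7.22 and 12 in L-Myc 1 and 2, and 7.55 and 12.10 in C-Myc 1 and 2, with no overlap. Gpx3 and Gpx7 encode glutathione peroxidases, 1 secreted and 1 of the endoplasmic reticulum. Their mean differences were 3.93 ± 0.52 and 2.54 ± 0.22 (SD over the 3 groups). Maob, the monoamine oxidase B gene, differed by 3.25, 3.45 and 3.70, and Arg1, arginase 1, by 2.94, 4.20 and 3.54. None of 17 tested genes of the metallothionein, glutathione and detoxification list was past 2-fold in all groups, and its medians were -0.11, 0.04 and -0.39. Dcn, the matrix proteoglycan decorin, was 6.59, 6.86 and 9.32 in preSC, 5.29 and 10.32 in L-Myc, and 5.33 and 9.69 in C-Myc arrays. Dcn is a fibroblast marker. Of 13 fibroblast and stroma markers measured, 4 to 5 were above the 40th percentile in the low arrays and 3 to 6 in the high arrays, with mean levels of 5.19 to 5.34 and 4.96 to 5.32. The defining collagens Col1a1 (4.78 to 4.97) and Col3a1 (3.52 to 3.79) were below that percentile in all 9 arrays. The part of such cells in the Dcn values was not tested. Rasef, Pof1b, Ccdc68, Gabra4, Prr16 and Cmbl complete the 20, with mean differences from 2.83 to 4.36. Pof1b encodes an actin-binding protein of epithelial junctions and Gabra4 a GABA receptor subunit.

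Many genes of epithelial junctions and identity were higher. Of 21 tested, 16 were above 0 in all 3 groups (24.3% of all genes tested were), 0 were below 0 in all 3 (20.8%), and 4 were past 2-fold in each (background 1.35%). Cldn7, a tight junction claudin, was 10.68, 10.89 and 12.39 in preSC 1, 2 and 3, 6.94 and 10.81 in L-Myc 1 and 2, and 9.12 and 10.84 in C-Myc 1 and 2. Krt18, a keratin of simple epithelia, was 11.31, 11.27 and 12.82 in preSC, 8.19 and 11.45 in L-Myc, and 9.99 and 11.39 in C-Myc arrays. Low was above high within each group, but across groups the levels overlapped: preSC 1 and 2 lay close to L-Myc 2 and C-Myc 2. Ovol1, a repressor that keeps epithelial identity, differed by 1.65, 2.01 and 1.85, and St14, the membrane protease matriptase, by 1.53, 2.40 and 1.22. The list medians of 0.89, 2.31 and 0.41 differed in size between groups, against 0.02, 0.01 and 0.02 for all genes tested. The mean level of the measured genes of this list was 9.96, 8.93 and 8.90 in the low arrays, 8.93, 8.92, 6.85 and 8.37 in the high arrays and 8.93 and 8.85 in the N-Myc arrays, so L-Myc 1 stood apart and the other ranges met. Of 13 genes of the mesenchymal list 1, Fn1, which encodes fibronectin, was past 2-fold, and it was higher, by 1.24, 1.24 and 1.74.

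Antigen presentation genes did not move in 1 direction. B2m, the shared light chain of class I molecules, was 10.20, 10.24 and 8.88 in preSC 1, 2 and 3, 8.37 and 7.24 in L-Myc 1 and 2, and 8.50 and 7.03 in C-Myc 1 and 2. It was lower in the low array of every group. Of 23 tested interferon and antigen presentation genes, 13 were instead above 0 in all groups (24.3% of all genes tested were) and 2, B2m included, below (20.8%), with medians of 0.42, 0.26 and 0.86. The class I heavy chain gene H2-K1 differed by 0.42, 0.69 and 1.86. B2m was the 1 gene of the list past 2-fold in all 3 groups, where 1.08% of all genes tested were lower.

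Most other lists held few of the shared genes. Over all genes tested, 1.35% were higher and 1.08% lower by 2-fold in all groups. Of 25 tested neuroendocrine markers, Rtn1, a reticulon of neuroendocrine cells, was the 1 past 2-fold, lower by 1.32, 1.85 and 2.50, and the list medians were -0.04, -0.13 and 0.21. The mitotic and S-phase list of 31 genes had medians of -0.18, -0.17 and 0.06 and none past 2-fold. None of 13 MYC genes and partners, 18 G1 regulators, 20 lysosomal genes, 18 imprinted genes or 9 sex-linked genes was past 2-fold in all groups. Myc itself was 6.50, 6.82 and 8.13 in preSC 1, 2 and 3, so it differed by 1.47 there, by 1.66 in L-Myc-preSC and by -0.53 in C-Myc-preSC. Rb1 differed by -0.42, -0.73 and 0.24. Dusp6, a phosphatase induced by ERK signalling, was the 1 of 22 immediate early genes past 2-fold, higher by 2.18, 2.21 and 1.13. Serpinb9, a granzyme B inhibitor, was the 1 of 7 serpins, higher by 2.12, 1.98 and 2.44, and Sprr1a, of the cornified envelope, the 1 of 6 basal and squamous markers, higher by 1.13, 2.00 and 1.55. Of 12 Hox genes 1, Hoxb6, was lower. None of 5 tested endothelium markers and none of 6 tested club and ciliated cell markers was past 2-fold in all groups. No gene of the germline list passed the filter on low values.

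Serpinb12, an intracellular serpin named with the rule as a marker of the low arrays, did not recur in all groups. It was 4.84, 5.05 and 8.54 in preSC 1, 2 and 3, 6.66 and 12.09 in L-Myc 1 and 2, and 11.46 and 12.26 in C-Myc 1 and 2. The high array C-Myc 1 thus lay near the low array C-Myc 2, with a difference of 0.80, and the N-Myc arrays were at 11.26 and 11.60. Lyz2, the other marker given, was lower in all 3 groups.

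The groups were compared by choosing genes in one and reading them in another. Of 497 genes at least 2-fold higher in preSC, 480 (96.6%) were above 0 in L-Myc-preSC, where 50.6% of all genes were, and 297 (59.8%) were past 2-fold. Of 433 lower genes other than Hdgfl3, 420 (97.0%) were below 0 and 288 (66.5%) past 2-fold. Of all genes tested, 4.64% were past 2-fold higher and 4.05% lower in L-Myc-preSC. Past 2-fold in the opposite direction there were 1 of the higher and 3 of the lower genes. The preSC genes recurred less fully in C-Myc-preSC. Of the higher genes 422 (84.9%) had the same sign there and 230 (46.3%) were past 2-fold. Of the lower genes 310 (71.6%) had the same sign and 168 (38.8%) were past 2-fold. Among all genes tested, 51.8% were above 0 in C-Myc-preSC, 6.43% were past 2-fold higher and 4.49% lower. Past 2-fold in the opposite direction in C-Myc-preSC were 5 of the higher and 35 of the lower genes. Across the 12976 genes, as a description over genes that share arrays, the differences of preSC and L-Myc-preSC had a Pearson correlation of 0.75 (Spearman 0.64), and those of preSC and C-Myc-preSC of 0.43 (Spearman 0.33). Leaving out chromosomes 2, 4, 9, 11 and 19 gave 0.72 and 0.42 over 8888 genes. No array is shared by these pairs of groups, though L-Myc 2 and C-Myc 2 are the near-identical arrays described above.

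**Figure D3:**
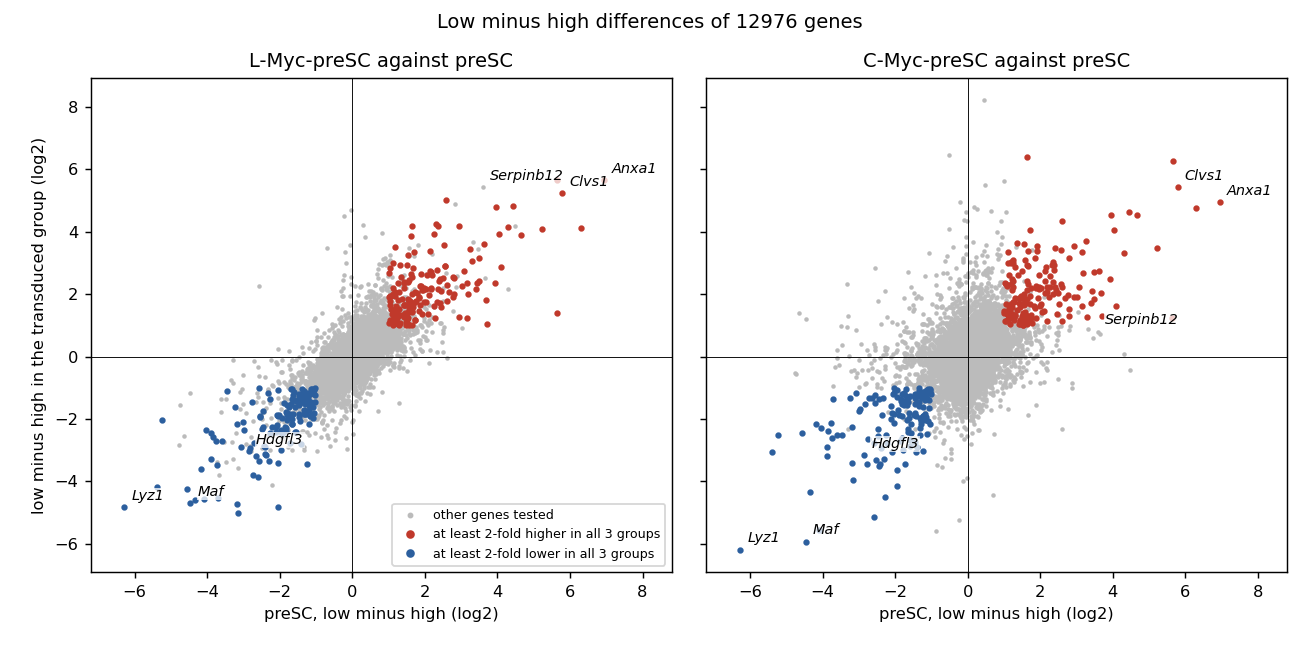
Low minus high difference (log2) of each of 12976 genes in preSC (horizontal axis) against that in L-Myc-preSC (left, vertical axis) and in C-Myc-preSC (right, vertical axis), 1 point per gene, with the 175 shared higher genes in red and the 140 shared lower genes in blue. The cloud is narrower on the left (Pearson 0.75) than on the right (0.43), and Serpinb12 lies far above 0 on the left and near it on the right.

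The N-Myc arrays, which the split did not use, lay mostly with the high arrays. For each gene the midpoint between low and high in C-Myc-preSC was taken as the limit. By that limit 163 and 154 of the 175 higher genes, and 134 and 134 of the 140 lower genes, were on the high side in N-Myc 1 and 2. Of the 7 arrays split, C-Myc 1 is the closest to both N-Myc arrays, differing at 98 and 103 genes. The counts by the C-Myc midpoint therefore follow in large part from that closeness. Against the preSC midpoint the counts were 169 and 168 of 175, and 109 and 107 of 140. Against the L-Myc midpoint they were 146 and 145, and 118 and 120. The same counts were not taken over all genes tested, so no background share stands beside them.

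Array controls differed as follows between low and high arrays. The 18S ribosomal RNA signal differed by -0.43, 1.12 and 0.17 in preSC, L-Myc-preSC and C-Myc-preSC. The BioB hybridisation spike differed by -0.22, 0.17 and -0.11. The 5' minus 3' difference of Actb, a measure of RNA integrity, differed by -0.11, -0.04 and -0.02 between low and high arrays, and that of Gapdh by -0.02, 0.02 and 0.04. The Actb difference was thus below 0 in all 3 groups, and the others changed sign between groups. The same measure of the Dap spike differed by -0.21, 0.03 and 0.05. Its level was -3.66 to -3.40 in the preSC arrays and -1.68 to -1.51 in the transduced arrays. For Actb the levels were -0.85 to -0.62 and -0.31 to -0.20. Whether this shift has a part in the distance of preSC 3 from the other low arrays was not tested. The part of these measures in the differences of other genes was not tested.

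Neighbouring genes were examined because several lower genes lie together. Tested genes were ordered along each chromosome with the RefSeq table and cut into 313 stretches of about 40 genes. In 3 stretches the median was below -0.20 in all 3 groups, 2 of them on chromosome 4 and 1 on chromosome 11. In 19 it was above 0.20 in all 3, of which 16 of 27 were on chromosome 11, 2 on chromosome 2 and 1 on chromosome 4. Between preSC 1 and 2, between the N-Myc arrays, and between L-Myc 2 and C-Myc 2, no stretch passed 0.20 in either direction. DNA copy number was not measured, and whether these stretches differ in DNA between the arrays was not tested.

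**Figure D4:**
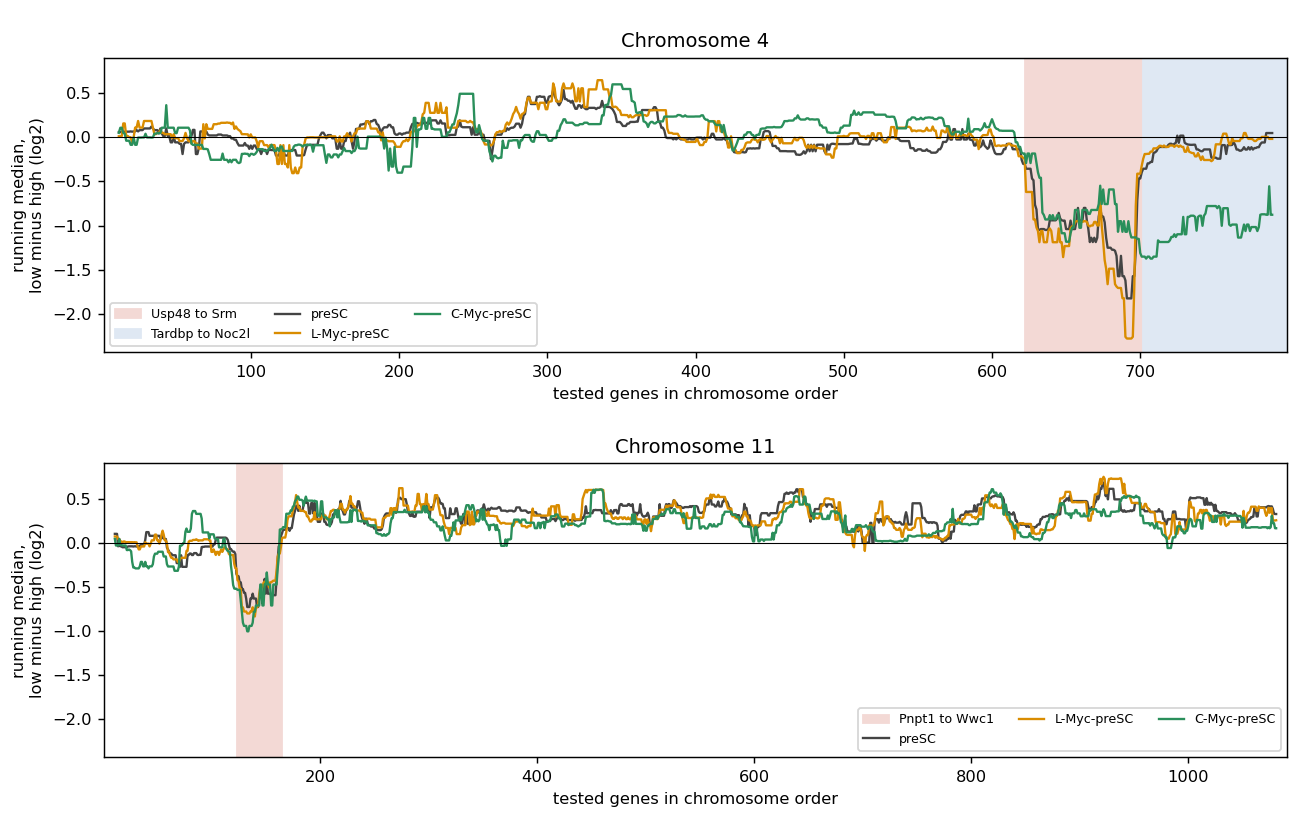
Running median over 21 tested genes of the low minus high difference (log2, vertical axis) along chromosomes 4 and 11 in gene order (horizontal axis), with a line for each group and shading for the stretches named in the text. All 3 lines are low at Usp48 to Srm and at Pnpt1 to Wwc1, only the C-Myc line stays low at Tardbp to Noc2l, and on chromosome 11 after Wwc1 the lines run mostly above 0.

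The stretch of chromosome 4 from Usp48 to Srm held 80 tested genes with medians of -1.09, -1.28 and -0.87 in preSC, L-Myc-preSC and C-Myc-preSC. Its edges, like those of the other stretches, were set after the values were seen. Of the 80, 60 were below 0 in all 3 groups and 27 belonged to the 140 shared lower genes. The medians were lowest at its end, where 18 genes from Miip to Srm had medians of -1.89, -2.37 and -1.11, while 60 genes from Usp48 to Vps13d had -1.04, -1.12 and -0.86. Srm encodes spermidine synthase, a polyamine enzyme, and was 11.06, 10.56 and 8.55 in preSC 1, 2 and 3, 12.31 and 9.87 in L-Myc 1 and 2, and 12.55 and 10.05 in C-Myc 1 and 2. Mtor, which encodes the growth kinase mTOR, was 10.57, 10.62 and 8.76 in preSC, 9.96 and 7.58 in L-Myc, and 9.15 and 7.77 in C-Myc arrays. Both genes were lower in each low array than in every high array. Mfn2, of mitochondrial fusion, differed by -2.37, -3.14 and -1.88, Sdhb, a subunit of respiratory complex II, by -1.67, -1.36 and -1.56, and Capzb, of the actin capping protein, by -1.46, -1.53 and -1.18. Of the 18 genes at the end, 17 were still above the 40th percentile in all 3 low arrays. These genes were named for lying in the stretch, after their values were seen.

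On chromosome 11, 42 tested genes from Pnpt1 to Wwc1 had medians of -0.65, -0.60 and -0.93, and 31 of them were below 0 in all 3 groups. Of these, 5 were among the shared lower genes. Sptbn1, which encodes a spectrin of the membrane skeleton, was 12.07, 12.26 and 11.10 in preSC 1, 2 and 3, 11.91 and 10.30 in L-Myc 1 and 2, and 11.71 and 10.33 in C-Myc 1 and 2. Npm1, the nucleolar protein nucleophosmin, lies in this stretch and differed by -0.97, -0.44 and -1.04. The 122 genes before it, from Sfi1 to Vrk2, had medians of -0.04, 0.00 and -0.06. The 926 genes after it had 0.33, 0.30 and 0.23, and 523 of them were above 0 in all 3 groups. On chromosome 2, 237 genes from Polr3f to Tshz2 had medians of 0.38, 0.30 and 0.19. The 10222 positioned genes left after chromosomes 9, 11 and 19, this part of chromosome 2 and chromosome 4 from Usp48 onward were set aside had medians of 0.00, -0.01 and -0.04.

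Both low stretches together hold 122 tested genes (0.940% of all) and 32 of the 140 shared lower genes (22.9%). They hold 0 of the 175 higher genes. The high parts of chromosomes 2 and 11 hold 1163 tested genes (8.96%) and 23 of the 175 higher genes (13.1%). The edges of these parts were set from the same differences, so these shares follow in part from that choice. Outside the low stretches lie 108 of the lower genes, Hdgfl3, the lysozymes, Maf and Foxp2 among them.

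**Figure D5:**
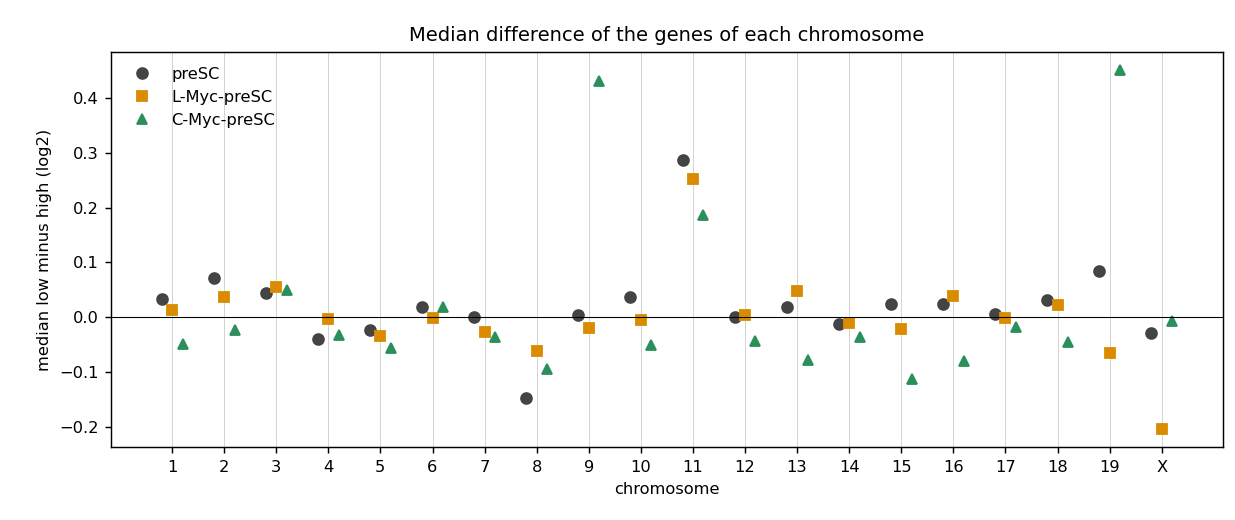
Median low minus high difference (log2, vertical axis) of the tested genes of each chromosome (horizontal axis), 1 point for each of the 3 groups. Chromosome 11 is above 0 in all 3 groups (0.29, 0.25 and 0.19), while chromosomes 9 and 19 are far above 0 in C-Myc-preSC alone (0.43 and 0.45).

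Some chromosome shifts belonged to C-Myc-preSC and not to the shared state. The medians of chromosome 9 were 0.00, -0.02 and 0.43, and those of chromosome 19 were 0.08, -0.07 and 0.45. The 98 genes from Tardbp to Noc2l, next to Srm on chromosome 4, had -0.09, -0.08 and -1.01. The near-identical low arrays L-Myc 2 and C-Myc 2 differed there by 0.01, 0.02 and 0.01, while the high array C-Myc 1 differed from L-Myc 1 by -0.48, -0.59 and 0.89. The N-Myc arrays differed from C-Myc 1 by -0.04, 0.02 and -0.10. So these shifts lay between C-Myc 1 with the N-Myc arrays and the other arrays compared.

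The genes whose pattern was most like that of Hdgfl3 were found by Pearson correlation over the 7 arrays, each array centred on its group. The most alike were Atp13a2, Dcaf10, Ddost, Lrp8 and Asb3, at 0.9988 to 0.9997. Of these, Atp13a2 and Ddost lie in the low stretch of chromosome 4 and Asb3 in that of chromosome 11. Atp13a2 encodes a lysosomal polyamine transporter and differed by -0.94, -1.01 and -1.09, and Ddost, a subunit of the oligosaccharyl transferase, by -1.05, -1.06 and -1.13. Most opposite were Maob, Nit1, Eva1b, Rbp4 and Gpx7, at -0.9999 to -0.9991. Rbp4, the retinol carrier, differed by 1.19, 1.31 and 1.32. Some of these differences were small: Dcaf10 differed by -0.24, -0.25 and -0.29, and Nit1 by 0.54, 0.58 and 0.60. The other Nit1 probe set changed sign, at 0.26, -0.09 and -0.32. Other Lrp8 probe sets differed by -0.17, -0.41 and -0.99 and by -0.62, -0.60 and -1.17. Those of Atp13a2 differed by -1.36, -1.90 and -1.49 and by -0.41, -0.85 and -0.41. The likeness was thus read on 1 probe set per gene. On the probe sets used, Atp13a2, Dcaf10, Asb3 and Nit1 were not past 2-fold in all 3 groups. With 1 low array in each group, such values mostly rank genes by how near the proportions of their 3 differences are to those of Hdgfl3. The Hdgfl3 probe set used here also split the arrays, so high values follow in part from the rule.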

How the data were processed

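Levels are log2 values from Affymetrix mouse whole-genome arrays, deposited by the authors after RMA with affy in R 3.0.1, per the submitters' processing notes. Of 45101 probe sets, 34945 were paired with 1 gene by the platform annotation, 932 with several and 9211 with none. The brightest probe set stood for each of 18193 genes, and 12976 above the 40th percentile in at least 2 of 9 arrays were tested. The difference is low minus high within a group, and a gene was counted where it was at least 1 on the log2 scale in the same direction in all 3 groups. A fit with group as a block (limma 3.58.1, R 4.3.3) was an alternative and gave no p-value, because the arrays were split by a measured level. The counting of genes past the limit in all 3 groups, not this fit, was tested on simulated data. The simulated arrays had independent noise and planted differences past the limit. L-Myc 2 and C-Myc 2 are near-identical, so the simulation checks the counting only and does not bear on how independent the recurrence is. Named genes are the 20 with the largest smallest-group difference in each direction, up to 4 per list and the 5 most like and most opposite to Hdgfl3. Predicted genes were left out of the 20. Hdgfl3, Lyz2, Serpinb12, Myc, Mycn, Mycl, Rb1, Rbl2 and Xist were fixed in addition. Others are marked as chosen after their values were seen. Hdgf, Psip1, H2-K1, Ptprc, Adgre1, Col1a1, Col3a1 and Sptbn1 were also named outside these rules. The members and lists were chosen with earlier results of these data known. Gene order and promoter windows come from RefSeq (GRCm38.p6). Other probe set, fold, filter, stretch length and leave-one-out settings were tried.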

Additional observations from a re-analysis of the deposited data

Results flagged for a closer look

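Ribosome biogenesis genes had medians of opposite sign between groups. Over 29 genes the median of low minus high was -0.041 in preSC, 0.21 in L-Myc-preSC and -0.81 in C-Myc-preSC, and the difference between groups was not tested. The mean level of these genes was 10.2 in L-Myc 2 and 10.3 in C-Myc 2, and 10.0 in L-Myc 1 and 11 in C-Myc 1.

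Probe sets with no gene in the annotation were outside the comparisons. Of 4263 that passed the filter, 21 were at least 2-fold higher and 36 at least 2-fold lower in the low arrays of all 3 groups.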

How the results depend on the processing

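No paired analysis was possible because no result here comes from a test, and no label ties equal replicate numbers across groups. Low and high arrays were compared within each group, and the coefficient with group as a block lay within 1 SD over the groups of the mean difference for all 90 named genes. Against 175 higher and 140 lower genes, a 1.5-fold limit gave 464 and 299, a 4-fold limit 37 and 30, second-brightest probe sets 64 and 61, and leaving out chromosomes 2, 4, 9, 11 and 19 gave 106 and 76. Leaving out arrays 1 at a time gave 169 to 297 higher and 140 to 289 lower genes. Against 19 high and 3 low stretches, 20-gene stretches gave 32 and 9, 80-gene stretches 10 and 1, second-brightest probe sets 9 and 1, and leaving out arrays 19 to 29 and 3 to 4. Fewer genes have a second probe set, and leaving out a group's only low or high array removes that group. On second-brightest probe sets the chromosome 4 stretch kept medians of -1.18, -1.33 and -1.22 over 38 genes. Second-brightest probe sets moved 14 named genes by more than that SD and left 16 within it, and the mean of the probe sets moved 30 and left 58, the rest having no value there. None of the named genes past 2-fold in all groups reversed its sign where a value could be had. With 1 low array per group, and near-identical low arrays in the transduced groups, the spread within the low state is not known.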

Other observations

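Ctsz, which encodes the protease cathepsin Z, separated arrays along another line. It was 11.81, 11.84 and 12.27 in preSC 1, 2 and 3, 12.34 and 11.94 in L-Myc 1 and 2, and 3.69 and 11.90 in C-Myc 1 and 2. In the N-Myc arrays it was 4.20 and 3.97, near C-Myc 1. Pvt1, the noncoding gene next to Myc, was 13.11 in C-Myc 1 and 13.58 and 13.63 in the N-Myc arrays, and between 5.40 and 7.51 in the other arrays.

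Stmn2, a microtubule regulator of neurons, was 7.90 in L-Myc 2 and 8.45 in C-Myc 2 but 5.23 in the low array preSC 3. It lay between 5.13 and 5.36 in the other arrays. These 3 genes were chosen after their values were seen.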
